A study of Homo sapiens with 22 samples.

Results

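The regions described here are the estrogen receptor binding sites in 2 windows of the human genome, one around EGR3 (chr8:22500000-22650000, 150 kb) and one holding RAMP3 and the sequence downstream of it (chr7:45150000-45500000, 350 kb), in hg19 (GRCh37). Every deposited peak that overlapped a window was taken, and peaks sharing 1 bp or more, in whichever of the 20 lists, were joined into 1 site. This gave 59 sites from 241 peaks, 25 in the EGR3 window and 34 in the RAMP3 window, of 93612 sites from 356472 peaks in the whole series. The windows were selected on measured values in these lists, as loci with peaks gained by D538G over wild type. Which libraries that choice drew on is not recorded. Differences between the genotypes in presence and in rank, with and without estrogen, are therefore given as descriptions, with no p for any site of the windows. The summit, the position of greatest signal in a peak, is not part of such a gain. Summit position alone was tested between the genotypes at single sites.

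The cells were clones of Ishikawa, an endometrial adenocarcinoma line, in which the estrogen receptor gene ESR1 carried a FLAG tag and was either wild type (2 clones) or carried the ligand-binding-domain mutation D538G (3 clones). All clones were kept at least 5 days in hormone-deprived medium and then given 10 nM estradiol (E2) or 0.1% DMSO for 1 h. Tagged receptor was precipitated with an anti-FLAG antibody from 2 replicates per clone and treatment. The groups were wild type DMSO (4 libraries), wild type E2 (4), D538G DMSO (6) and D538G E2 (6), and 2 input samples were not analysed here. Each clone is 1 cell line, so libraries of a clone are not independent of each other, and p-values measure the spread between these libraries only.

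Estrogen receptor alpha, the product of ESR1, is a ligand-activated transcription factor. When estradiol binds, helix 12 of the ligand-binding domain folds over the pocket, coactivators can dock, and the receptor binds DNA at estrogen response elements, palindromes of the motif GGTCA, often far from the genes they regulate. The D538G substitution lies near the start of helix 12, favours this active position without hormone, and is known from endocrine-resistant breast tumours as well as from endometrial cancers. EGR3 encodes a zinc finger transcription factor of the early growth response family, an immediate-early gene that estrogen induces in breast cancer cells. RAMP3 encodes a receptor activity-modifying protein, a single-pass membrane protein that pairs with the calcitonin receptor-like receptor to form an adrenomedullin receptor.

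No genome or annotation of hg19 was used here, so no site was placed in an exon, intron or UTR, and no peak sequence was read. In the RefSeq gene table of GRCh38.p14, used for gene order only, the neighbours of EGR3 were SORBS3, PDLIM2, C8orf58, CCAR2 and BIN3 on one side and PEBP4 on the other. The description of the window places its distal site in PEBP4, a phosphatidylethanolamine-binding protein gene. The neighbours of RAMP3 were CCM2, NACAD and TBRG4 on one side and, beyond long non-coding RNA genes and ELK1P1, ADCY1 on the other. Sites are named here by window and letter in the order of their coordinates, and a letter was given to each site with a peak in at least 4 lists. Other early growth response genes and other genes of the adrenomedullin receptor were not used here.

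The promoter sequence of RAMP3 is shown for the receptor's motif at this locus. In the 300 bases around the RefSeq start of RAMP3 (GRCh38.p14, + strand), TGACC, the reverse complement of the motif GGTCA, occurred 1 time, 15 bases after the start, and it is in capitals in the 29 bases at chr7:45157793-45157821:
RAMP3: cgggaccgagcgTGACCcagctgcggccg
GGTCA or TGACC occurred in 37.4% of 35116 RefSeq promoter windows of that length, and the whole palindrome (GGTCA, any 3 letters, TGACC) in 0.0570%. The stretch is a description of the promoter. Its build differs from that of the peak lists, so no peak was placed on it, and whether the receptor bound there was not examined.

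The lists differed widely in length, which bears on every count below. Wild type DMSO lists held 45, 51, 1080 and 29118 peaks, wild type E2 lists 5757 to 35344, D538G DMSO lists 1619 to 54903 and D538G E2 lists 1977 to 49223. Read depth is not recorded in the lists and is unknown here. Peaks carry a −log10 p of at least 10 (the smallest was 10.0458), so a site with no peak is one that was not called at that level, and weaker binding there was not measured. Wild type clone 1 DMSO replicate 2, with 29118 peaks, stands apart from the other 3 wild type DMSO lists, and all 7 sites of the windows that had any wild type DMSO peak had it in that list alone. Without it, no site of either window had a wild type DMSO peak.

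Of the 59 sites, 29 had a peak in 1 list only, 13 in 2 or 3 lists and 17 in 4 or more, where 43.8% of all regions had a peak in 1 list only and 33% in 4 or more. All 42 sites below 4 lists lacked a wild-type peak. In the whole series 52660 of 93612 regions lacked one, and only 1507 of these were among the 30911 regions with peaks in 4 or more lists. Most regions below 4 lists thus lacked one as well. All 29 single-list sites came from 4 D538G lists. The 3 longest D538G lists (DMSO replicate 2 of clone 1 and of clone 2, and E2 replicate 2 of clone 3) gave 9, 9 and 8 of them. How many of the 41003 single-list regions of the series came from the same 4 lists was not counted, so nothing is read from this. In all, 44 of the 59 sites had no wild-type peak, beside 56.3% of all regions in the series. Among the 17 lettered sites only EGR3 sites H and I had none, beside 4.88% of all regions with peaks in 4 or more lists. No site in either window had wild-type peaks and no D538G peak, and the share of all regions with that pattern was not counted.

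The number of sites per list ran with the length of the list in both windows. EGR3 sites with a peak numbered 0, 0, 0 and 4 in wild type DMSO, 2 to 7 (median 5) in wild type E2, 2 to 16 (median 4.5) in D538G DMSO and 3 to 13 (median 5.5) in D538G E2. RAMP3 sites numbered 0, 0, 0 and 3, then 2 to 8 (median 4.5), 4 to 18 (median 6.5) and 3 to 16 (median 5) in the same order of groups. The D538G DMSO, D538G E2 and wild type E2 ranges overlap. The wild type DMSO list of 29118 peaks, with 4 and 3 sites, held fewer sites than D538G E2 clone 3 replicate 1 with 19832 peaks, which had 11 in each window.

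**Figure D1:**
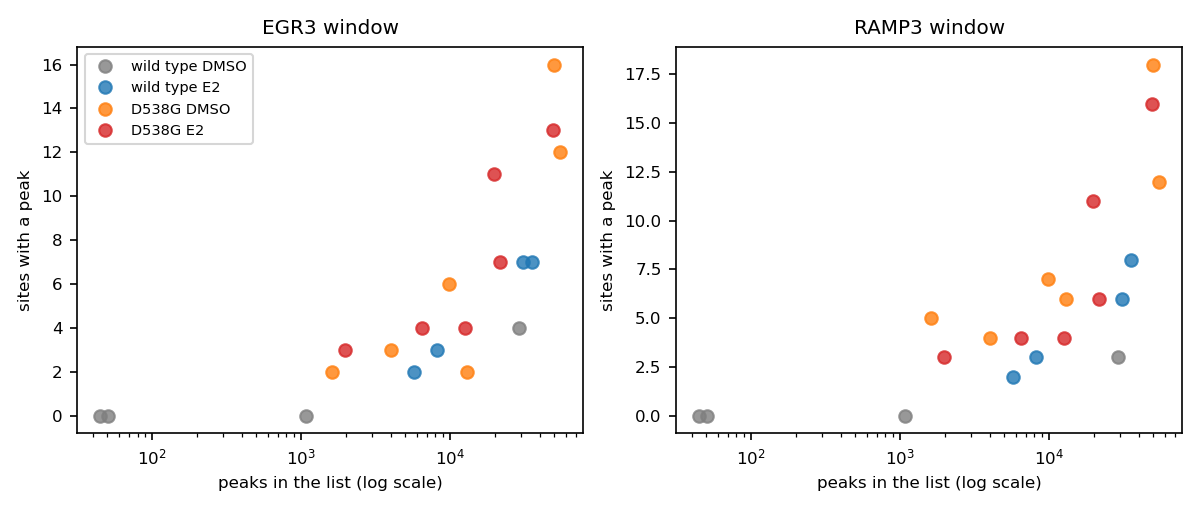
Number of sites with a peak in the EGR3 window (left) and the RAMP3 window (right) against the number of peaks in the list on a log scale, 1 point per library, coloured by group. The wild type DMSO list with 29118 peaks lies at 4 and 3 sites, and the other 3 wild type DMSO lists lie at 0.

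The EGR3 window held 9 lettered sites, and 3 of them, E, F and G, lay within 4.65 kb of each other. Site E (chr8:22594910-22597584) was peak-free in all 4 DMSO lists of the wild type (0 of 4) and had a peak in 4 of 4 of its E2 lists, in 6 of 6 DMSO and in 6 of 6 E2 lists of D538G. Site G (chr8:22600468-22602357) had peaks in 1 of 4, 4 of 4, 6 of 6 and 6 of 6 lists in that order of groups, and was the site of the window with peaks in most lists (17). Site F (chr8:22598659-22599743), between them, had peaks in 0 of 4, 3 of 4, 4 of 6 and 5 of 6. The 6 of 6 against 0 of 4 pattern without estrogen was found at 3 sites of the windows, EGR3 site E and RAMP3 sites G and H, beside 0.814% of 32172 regions, a count on which the choice of the windows bears, and from which nothing is read.

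Site E was the strongest EGR3 site, by the deposited enrichment signal, in each of the 16 lists that held it. The signal compares peaks within a list only, so each peak was ranked in its own list, with rank 1 the strongest and the percentile 100 at the top. In D538G DMSO the site E peak ranked 6 of 12963 and 3 of 50382 in clone 1, 88 of 4032 and 44 of 54903 in clone 2, and 2 of 9850 and 88 of 1619 in clone 3. With E2 it ranked 5 of 12566 and 11 of 6542 in clone 1, 67 of 21869 and 53 of 1977 in clone 2, and 1 of 19832 and 12 of 49223 in clone 3. It was thus the strongest peak of the whole list in D538G E2 clone 3 replicate 1, and among the first 88 peaks of all 12 D538G lists. In wild type E2 it ranked 831 of 8206 and 1184 of 35344 in clone 1, and 573 of 5757 and 1429 of 31108 in clone 2. Its best wild type E2 rank was 573, although it was present in all 4 lists. Site E does not lead by number of lists and was chosen for full description after its values were seen.

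As within-list percentiles, site E stood at 93.0 ± 3.53 (SD, n = 4) in wild type E2, 98.7 ± 2.18 (n = 6) in D538G DMSO and 99.5 ± 1.04 (n = 6) in D538G E2. Site G, 4.65 kb from it, stood at 84.4 ± 9.67, 91.5 ± 12.6 and 92.2 ± 15.0, and lay at 79.7 in the single wild type DMSO list that had it. Site E had a larger signal than site G in 16 of 16 lists that held both. Percentiles from lists of different length are descriptions and were not compared by a test.

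The remaining lettered EGR3 sites were in fewer lists. Sites A (chr8:22526084-22526850), C (chr8:22550890-22551305) and D (chr8:22551744-22553613) each had a peak in the 29118-peak wild type DMSO list, in 2 of 4 wild type E2 lists, and in 3, 2 and 5 of the 12 D538G lists. Site B (chr8:22532802-22533329) was in 0 of 4 and 2 of 4 wild type lists (DMSO, then E2) and in 3 of 6 and 3 of 6 D538G lists. At sites A, B, C and D the wild type E2 peaks were all in the longer replicate 2 lists, and no replicate 1 list had one. Sites H (chr8:22608184-22608945) and I (chr8:22612391-22612939), with H 7.15 kb beyond G and I 4.10 kb beyond H, were in no wild-type list. Site H was in 2 of 6 D538G DMSO and 5 of 6 D538G E2 lists, and site I in 1 of 6 and 3 of 6.

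**Figure D2:**
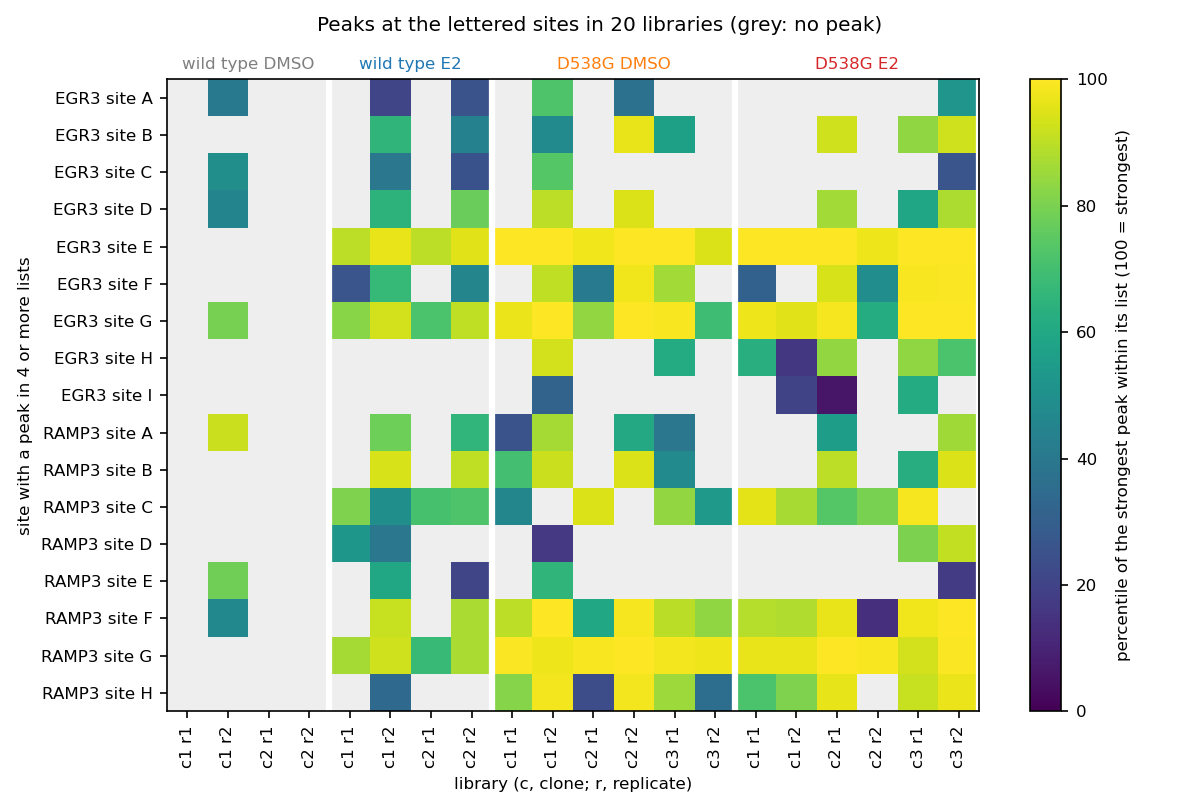
Within-list percentile of the strongest peak (colour, 100 = strongest) at each of the 17 lettered sites (rows) in each of the 20 libraries (columns, c for clone and r for replicate), with grey where no peak was called. EGR3 site E is at 94.6 or above in all 12 D538G columns, and RAMP3 site F is at 13.4 in D538G E2 clone 2 replicate 2.

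The RAMP3 window held 8 lettered sites, and those in nearly all D538G lists were the 3 farthest downstream, F, G and H, spread over 56.9 kb. Site G (chr7:45453093-45454626) had a peak in the same 16 lists as EGR3 site E, that is in 0 of 4 and 4 of 4 wild type lists (DMSO, then E2) and in 6 of 6 and 6 of 6 D538G lists. Exactly these 16 lists held a peak at 189 regions, 0.202% of all regions, and 0.704% had a peak in these 16 whatever the wild type DMSO lists held. Site F (chr7:45439926-45441298), 13.5 kb away, was in 1 of 4, 2 of 4, 6 of 6 and 6 of 6. Its wild type E2 peaks were in the replicate 2 lists of clones 1 and 2, which held 35344 and 31108 peaks. The wild type E2 replicate 1 lists, with 8206 and 5757 peaks, had none there. Site H (chr7:45497030-45497755), 43.4 kb beyond G, was in 0 of 4, 1 of 4, 6 of 6 and 5 of 6.

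At RAMP3 site G the peak ranked 85 of 12963 and 1244 of 50382 in D538G DMSO clone 1, 37 of 4032 and 77 of 54903 in clone 2, and 167 of 9850 and 42 of 1619 in clone 3. With E2 it ranked 417 of 12566 and 211 of 6542 in D538G clone 1, 74 of 21869 and 19 of 1977 in clone 2, and 1382 of 19832 and 385 of 49223 in clone 3. In wild type E2 it ranked 1109 of 8206 and 2579 of 35344 in clone 1, and 1889 of 5757 and 4001 of 31108 in clone 2. The within-list percentile was 83.4 ± 11.1 (SD, n = 4) in wild type E2, 98.6 ± 0.994 (n = 6) in D538G DMSO and 97.4 ± 2.50 (n = 6) in D538G E2. By percentile, every D538G DMSO list placed this peak higher than every wild type E2 list did. The share of all regions separated in this way was not counted. The lists differ in length and the window was chosen for gains in D538G, so this is a description only.

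Which RAMP3 site was strongest differed between lists. Site G led in 5 of 6 D538G DMSO lists and 4 of 6 D538G E2 lists, with site F leading in 1 of each and site C in 1 D538G E2 list. In wild type E2, site B led in 2 lists, site C in 1 and site G in 1. Site G exceeded F in 10 of 14 lists that held both, and F exceeded H in 12 of 12. EGR3 site E exceeded RAMP3 site G in 13 of 16 lists, while EGR3 site G exceeded RAMP3 site G in 8 of 16 (3 of 16 when ordered by −log10 p, an ordering added after the data were seen).

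The sites nearer the start of the RAMP3 window were in fewer D538G lists than F, G and H, and each had peaks in wild-type lists. Site A (chr7:45150889-45151825) was in 1 of 4 and 2 of 4 wild type lists (DMSO, then E2) and in 4 of 6 and 2 of 6 D538G lists. Site B (chr7:45197192-45197974) was in 0, 2, 4 and 3 lists, site D (chr7:45277378-45277763) in 0, 2, 1 and 2, and site E (chr7:45299277-45299957) in 1, 2, 1 and 1, in the same order of groups. At sites A, B and E the wild type E2 peaks were all in the longer replicate 2 lists, and at site D in 1 list of each replicate number. Site C (chr7:45276095-45276857) was in 0 of 4, 4 of 4, 4 of 6 and 5 of 6.

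RAMP3 site C had an unusual set of lists, a pattern picked out after its values were seen. It had a peak in all 4 wild type E2 lists and in 9 D538G lists, and none in the 3 longest D538G lists, which hold 54903, 50382 and 49223 peaks. Among 4653 regions with a peak in all 4 wild type E2 lists, 22.4% had none in the 3 longest D538G lists. Of the 862 regions with a peak in those 13 lists, 5 (0.58%) had none in the 3 longest D538G lists. The other 4 were chr2:102874291-102875017, chr4:109224460-109225165, chr9:108674733-108675976 and chr21:27459448-27460470, and all 5 lacked wild type DMSO peaks.

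**Figure D3:**
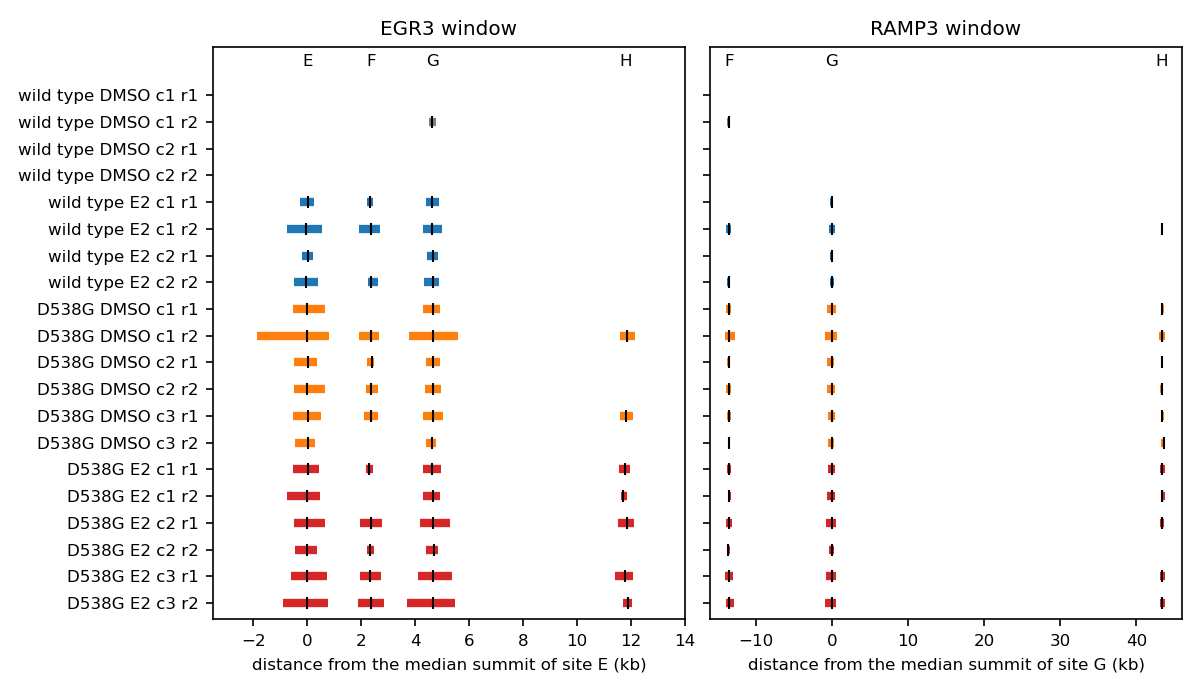
Extent of each peak (bar, coloured by group) and its summit (black tick) in each library, around EGR3 site E (left) and RAMP3 site G (right), against the distance in kb from the median summit of that site, with site letters above. Summits of EGR3 site E stay within 73 bp of each other across 16 lists and those of RAMP3 site G within 77 bp.

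Summit differences between the genotypes with E2 gave no p under 0.05 at EGR3 site E, EGR3 site G or RAMP3 site G. The summit is the position of greatest signal in a peak. Across all lists that held them, summits of EGR3 site E spanned 73 bp (16 lists), those of EGR3 site G 74 bp (17 lists) and those of RAMP3 site G 77 bp (16 lists). RAMP3 site H was more scattered, spanning 309 bp over 12 lists. With E2, the mean summit of EGR3 site E lay 10.75 bp higher in D538G than in wild type (p = 0.524, exact two-sided permutation test over libraries). That of EGR3 site G lay 18.9 bp higher (p = 0.143, same exact test), and that of RAMP3 site G differed by −6 bp (p = 0.767, same exact test). These tests did not take replicate number into account. In wild type E2 the EGR3 site E summits were at 22596802 and 22596820 in replicate 1 and at 22596747 and 22596752 in replicate 2. Those of RAMP3 site G were at 45453968 and 45453973 in replicate 1 and at 45454038 and 45454033 in replicate 2. At EGR3 site G the wild type E2 replicates overlapped. No adjusted p passed 0.05 at any of the 1112 sites held by all 10 E2 lists, and 5.94% had an unadjusted p under 0.05. The median size of the difference over those sites was 15.3 bp.

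To compare genotypes with E2 over the same sites in each list, each site held by all 10 E2 lists was ranked among those 1112 sites alone. List length still bore on which sites these were, since the shortest list, D538G clone 2 E2 replicate 2, held 1977 peaks. EGR3 site E ranked 518 and 396 in wild type clone 1 and 385 and 487 in clone 2, and 5 and 11, 63 and 50, and 1 and 10 in D538G clones 1, 2 and 3. Its percentile was 59.9 ± 5.94 (SD, n = 4) in wild type and 98.0 ± 2.35 (n = 6) in D538G, a difference of 38.0 points, and the groups did not overlap. Groups did not overlap, with D538G higher, at 5.31% of the 1112 sites. Site E was singled out for ranks of this kind and the windows for gains in D538G, so its difference is a description and supports nothing further.

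EGR3 site G ranked 728, 596, 764 and 743 of 1112 in the wild type E2 libraries, and 242, 257, 257, 558, 31 and 65 in the D538G E2 libraries. All 6 D538G libraries lay above all 4 wild-type libraries, at 78.9 ± 16.9 (SD, n = 6) against 36.4 ± 6.82 (n = 4), a difference of 42.5 points. The lowest D538G value, 49.9 in clone 2 replicate 2, was close to the highest wild-type value, 46.4 in clone 1 replicate 2. RAMP3 site G ranked 619, 622, 825 and 831 in wild type and 329, 176, 70, 19, 720 and 305 in D538G. Its percentile was 34.9 ± 10.8 (n = 4) and 75.8 ± 22.7 (n = 6), a difference of 40.9 points. The groups overlapped there: D538G clone 3 replicate 1 (35.3) fell below both libraries of wild type clone 1 (44.4 and 44.2).

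The median difference over all 1112 sites was −0.289 points, and 552 of them stood higher in D538G. By an exact two-sided permutation test over 210 divisions of the libraries, none of the 1112 passed an adjusted p of 0.05. At an unadjusted p under 0.05 there were 254, 12.2% with D538G higher and 10.6% with D538G lower. Within replicate 1 alone the differences were 38.5, 51.2 and 31.4 points for EGR3 sites E and G and RAMP3 site G, and within replicate 2 alone 37.6, 33.8 and 50.4.

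The D538G clones were ordered differently at the 3 sites. Clone 3 held the highest values at EGR3 site G (97.3 and 94.2) and the lowest at RAMP3 site G (35.3 and 72.7, beside 70.5 and 84.3 in clone 1). Clone 2 held the highest at RAMP3 site G (93.8 and 98.4) and the lowest at EGR3 sites E (94.4 and 95.6) and G (76.98 and 49.9, beside 78.3 and 76.98 in clone 1). With 2 libraries per clone, differences between clones were not tested.

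**Figure D4:**
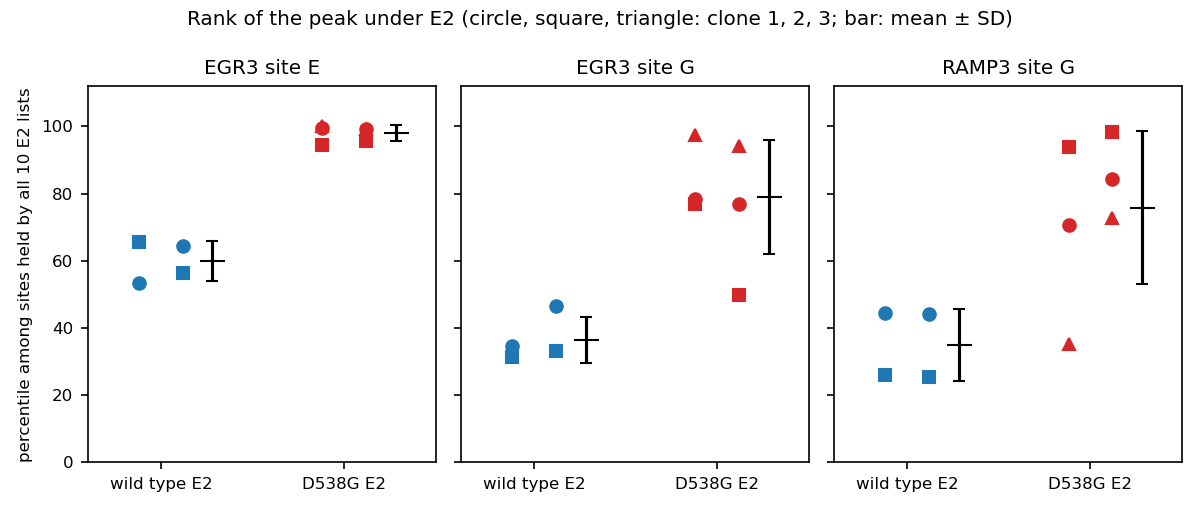
Percentile of the peak among the 1112 sites held by all 10 E2 lists, for EGR3 sites E and G and RAMP3 site G, in wild type E2 (blue) and D538G E2 (red), 1 point per library with the shape giving the clone, and bars giving the mean ± SD. EGR3 site E is at 94.4 or above in all 6 D538G libraries and at 65.5 or below in all 4 wild-type libraries, and at RAMP3 site G the groups overlap.

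D538G libraries without estrogen could be set on the same kind of scale through the 659 sites held by all 16 lists other than wild type DMSO, as a description. EGR3 site E ranged from 88.3 to 99.8 (median 96.7) in D538G DMSO, 91.4 to 99.9 (median 98.7) in D538G E2 and 44.6 to 59.3 (median 52.3) in wild type E2. EGR3 site G ranged from 45.8 to 99.2 (median 64.9), 34.7 to 95.6 (median 68.7) and 22.4 to 38.5 (median 24.7) in that order. RAMP3 site G ranged from 46.3 to 95.6 (median 88.9), 28.6 to 97.4 (median 70.5) and 16.2 to 35.5 (median 26.1). D538G DMSO values lay above all wild type E2 values at each of the 3 sites, and the D538G DMSO and D538G E2 ranges overlapped at all 3. The share of the 659 sites with such a separation was not counted. The windows were chosen for gains in D538G, so nothing is read from it.

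Presence with E2 differed in both directions between genotypes over the windows. Of 18 sites with a peak in at least 2 E2 lists, 6 were in a larger share of D538G than wild-type lists, 6 in a smaller share and 6 in an equal share, and the median difference in share was 0. Over all 35729 regions tested, 21.7% were in a larger share of D538G lists, and the median difference in share was −0.167. The windows were chosen for gains in D538G, so nothing is read from that contrast. EGR3 site H, in 5 of 6 D538G and 0 of 4 wild-type lists, had the largest difference in share among the lettered sites. It had no wild-type peak in any list and entered this count through D538G lists alone. RAMP3 site F was in 6 of 6 D538G and 2 of 4 wild-type lists, and RAMP3 site H in 5 of 6 and 1 of 4. EGR3 site I was in 3 of 6 and 0 of 4. Over the 35729 regions, 0.325% had an unadjusted p under 0.05 with more D538G lists and 0.89% with fewer (Fisher's exact test, two-sided). No adjusted p among the 35729 regions passed 0.05.

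Holding every E2 list to its 1977 strongest peaks, the length of the shortest, was a choice made after the data were seen. RAMP3 site F then had a peak in 6 of 6 D538G and 0 of 4 wild-type lists, beside 0.928% of 3880 regions with that pattern. EGR3 site F and RAMP3 site H were each in 4 of 6 against 0 of 4, and EGR3 site G and RAMP3 site G in 6 of 6 against 2 of 4. EGR3 site E remained in all 10 lists, and RAMP3 site C was in 4 of 6 against 2 of 4. EGR3 site H was in none of the 10 shortened lists. None of the 3880 regions passed the adjusted threshold by Fisher's exact test, with 3.32% at an unadjusted p under 0.05 for more D538G lists and 2.81% for fewer.

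E2 was compared with DMSO within each genotype. In wild type, all 14 window sites with peaks in at least 2 lists were in more E2 than DMSO lists, beside 90.7% of 29233 regions. RAMP3 site C, EGR3 site E and RAMP3 site G went from 0 of 4 lists to 4 of 4, beside 9.34% of regions, and EGR3 site G from 1 of 4 to 4 of 4. Sites with no wild type DMSO peak entered this count through the E2 lists alone, and 3 of the 4 wild type DMSO lists were shorter than any wild type E2 list, so no p is given for them. In D538G, 30 sites had peaks in at least 2 lists, of which 7 were in more E2 lists, 8 in fewer and 15 in an equal number, beside 23.5% of regions in more. EGR3 sites E and G and RAMP3 sites F, G and H were in all 6 D538G DMSO lists, so they could not be in more E2 lists. The windows were chosen for gains in D538G, possibly from these DMSO lists, so no p is given for their sites. By Fisher's exact test over all 44920 regions, 0.02% fell under 0.05 before adjustment. These 2 comparisons use the E2 libraries of the genotype comparison as well, and the difference between them was not tested. No region passed the adjusted threshold in either.

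Without estrogen, 19 sites of the windows had peaks in at least 2 of the 10 lists, 17 in a larger share of D538G lists and 2 in a smaller share, beside 82.2% of 32172 regions with a larger share. Since the windows were chosen for such gains, the count is given only as a description. At the edges of the windows, RAMP3 sites A and H lay 1.825 and 2.97 kb inside. The nearest sites outside with peaks in at least 4 lists were chr7:45128406-45129309 (1 and 2 wild type lists and 2 and 0 D538G lists, DMSO before E2) and chr7:45613252-45613905 (0, 1, 1 and 2). For EGR3 they were chr8:22479910-22480909 (1, 2, 3 and 1) and chr8:22722317-22722699 (1, 2, 2 and 1).

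The regions elsewhere most like the leading sites were found by the mean absolute difference in within-list percentile, among regions with peaks in exactly the same lists. For EGR3 site E, over 16 lists and 188 such regions, the nearest were chr5:72612848-72614000 (2.24 points), chr16:11799137-11800696 (2.28) and chr17:54967647-54969664 (2.35), against a median of 10.3. RAMP3 site G was the 14th nearest, at 3.95 points. For RAMP3 site G the nearest were chr3:197318244-197319642 (2.49), chr1:230907681-230909653 (2.72) and chr16:11799137-11800696 (2.91). For EGR3 site G, over 17 lists and 121 regions, they were chr9:139037931-139042081 (4.73), chr16:27253822-27255194 (4.80) and chr15:78044884-78046359 (4.80).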

How the data were processed

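Anti-FLAG ChIP-seq peak lists of 20 libraries were used as the authors deposited them, in hg19; the submitters' processing notes name Bowtie, MACS2 and DESeq2 with no version or role, and parameters are not given in the sources used here. Each deposited list carries the peak names of 1 library, so peaks were called per library; the peak names of replicate 1 of D538G clones 1 and 2 include an input, the others do not. The deposited columns are an enrichment signal per peak, a −log10 p-value per peak (the authors' lists hold none below 10), and a display score that was not used. Library totals are unknown, so no counting interval was given.

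Peaks on nuclear chromosomes (5 mitochondrial peaks were left out) were joined by 1 bp of overlap (Python 3.11.15, bedtools 2.31.1 as a check, 93612 regions by both). Groups came from the labels. Presence was compared by Fisher's exact test for regions with peaks in at least 2 lists, and ranks and summits by exact permutation over libraries, with Benjamini-Hochberg adjustment over all regions tested (threshold 0.05); the tests were tested on simulated data (scipy 1.17.1). Named sites were those in at least 4 lists, the lead site of a window being the one in most lists, and like regions the 3 nearest. The members, windows and lists were chosen with earlier results of these data known. The tests of presence and rank between genotypes, run as designed over all regions, are therefore given as shares of all regions and not for single sites. Summit tests are given for EGR3 sites E and G and RAMP3 site G. Genotypes share only a replicate number; within a clone, the same number links an E2 and a DMSO library. Alternatives were the joining rule, stricter p, the 1000 strongest peaks, −log10 p ranks, a replicate block, clone means and leaving out libraries. The deposited signal was ranked only within a list.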

Additional observations from a re-analysis of the deposited data

Results flagged for a closer look

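In 12 of 47 groups of values searched, 1 library lay far from the rest of its group by Dixon's gap test at the 95% level. Chance gives about 1 in 20 for independent values from a normal distribution. Counts with ties and percentiles bounded at 100 are not such values, so nothing is read from the 12 of 47 as a rate. Wild type clone 1 DMSO replicate 2 had peaks at 4 EGR3 sites and 3 RAMP3 sites, against 0 in the other 3 wild type DMSO lists. D538G clone 2 E2 replicate 2, the shortest D538G E2 list, had the lowest within-list percentile at EGR3 site E (97.4, next 99.7), at EGR3 site G (61.8, next 95.3) and at RAMP3 site F (13.4, next 88.1). Its summit lay 49 bp above the median summit at EGR3 site G and at −75 bp from it at RAMP3 site F. D538G clone 1 DMSO replicate 2 had the widest peaks, 2675 bp at EGR3 site E (next 1195), 1810 bp at EGR3 site G (next 723) and 1373 bp at RAMP3 site F (next 627). The summit of D538G clone 1 E2 replicate 1 lay 29 bp above the median at EGR3 site E (next 3), and that of D538G clone 3 DMSO replicate 2 lay 255 bp above it at RAMP3 site H (next 27). The values of 1 library at several sites are not independent of each other.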

How the results depend on the processing

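Of 818 recomputed values for 71 results, 7 reversed, 1 count moved and 810 did neither, and the cause was not tested. For a tested result, doing neither meant no reversal and the same side of the adjusted threshold. No region passed that threshold under any setting run, so keeping its side says little. For a described percentile or number of sites, it meant staying within the SD of the libraries. The 810 include 69 values, for 10 results, that left a main difference in share of 0 and so had no direction to keep. With the 1000 strongest peaks per list, the D538G minus wild type share with E2 went from 0 to 1 at EGR3 site G, 0.833 at RAMP3 site G and 0.5 at EGR3 site E. With lists held to 1977 peaks it went from 0 to 0.5 at EGR3 site G and RAMP3 site G. Leaving out single libraries, it ran from −0.167 to 0.167 at EGR3 sites B and D and RAMP3 site B. RAMP3 site C, in a smaller share of D538G than wild type E2 lists (difference −0.167), was in a larger share with the 1000 strongest peaks per list (0.667) and with lists held to 1977 peaks (0.167). Leaving out each library in turn, the difference of EGR3 site F (0.0833) ran from −0.167 (without wild type clone 2 E2 replicate 1) to 0.25. Likewise the summit difference of EGR3 site E ran from −0.333 to 24 bp, the lowest without wild type clone 1 E2 replicate 2, and that of RAMP3 site G from −17.7 to 5.67 bp, turning to 5.67, 4 and 1.2 bp without wild type clone 1 E2 replicate 2, wild type clone 2 E2 replicate 2 and D538G clone 2 E2 replicate 2. The order of EGR3 site G over RAMP3 site G changed from 8 to 3 of 16 lists by −log10 p. With a replicate block the E2 rank differences stayed at 38.0, 42.5 and 40.9 points for EGR3 sites E and G and RAMP3 site G, as they must, and 215 in place of 254 of the 1112 sites had an unadjusted p under 0.05. With clone means as units that count was 0, since no p can then fall below 0.1. Replicate 1 deviations in rank of the genotypes correlated at −0.107 across 1112 sites. This value covers ranks at common sites only, and whether the replicate number links the genotypes in list length or summits was not tested. Leaving out each library in turn gave rank differences of 35.9 to 39.9, 38.9 to 48.3 and 36.4 to 49.0 points. Held to 1977 peaks, EGR3 site E differed by 75.5 points over 285 common sites, and EGR3 site G and RAMP3 site G were not among those sites.

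Counts of regions at an unadjusted p under 0.05 depended on the setting. For genotype with E2 they were 434 in the main setting, 157 with the 1000 strongest peaks, 197 with the block, and, with lists held to equal length, 240 of 3891 regions joined anew from the shortened lists or 238 of 3880 regions joined from the full lists. For E2 in wild type they were 2731, 30 with the 1000 strongest and 0 with the block, and for E2 in D538G 9, 1 and 0. Adjusted counts were 0 under all settings run. Read depth is unknown.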
